A study of Drosophila melanogaster with 4 samples.

Results

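Of 9 genes of the septate junction and the basolateral membrane, 1 had a peak of the tagged transcription factor Ribbon (Rib) in fkh-Gal4 embryos and another 1 had a peak in sage-Gal4 embryos. The fkh-Gal4 peak lay at Fas3 and the sage-Gal4 peak at scrib. The genes dlg1, l(2)gl, sinu, kune, pck, nrv2 and Atpalpha had no peak of either driver in the gene body or within 1 kb of it. The members were chosen by symbol, with earlier results of these data known. All 9 were found in the RefSeq table of the dm6 assembly, which places 13946 protein-coding genes on the chromosomes 2, 3, 4, X or Y.

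The protein was Rib fused to GFP, expressed from a UAS transgene in Drosophila melanogaster embryos of genotype fkh-GAL4::UAS-rib-GFP or sage-GAL4::UAS-rib-GFP. Each driver is in use as a salivary gland driver in embryos, and the labels name no mutation that removes the untagged protein. Chromatin came from whole embryos of stages 11 to 16, and each driver has 1 anti-GFP immunoprecipitation and 1 input, each merged from 3 collections. The peak lists of the 2 immunoprecipitations are analysed here, with 4196 peaks for fkh-Gal4 (median width 122 bp, quartiles 89 and 189) and 907 peaks for sage-Gal4 (median 102 bp, quartiles 76 and 141). Of these, 3372 fkh-Gal4 and 868 sage-Gal4 peaks lie on the chromosomes 2, 3, 4, X or Y, where the counted genes are. Peak widths here and below are compared over the whole lists. The lists hold positions only, with no height, score or read count, so the depth is unknown, no value has a replicate error, and where a list has no peak, weaker binding below the authors' threshold may have gone uncalled.

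Septate junctions are the occluding junctions of insect epithelia, placed on the lateral membrane below the adherens junction. They seal the space between cells, and in the trachea and salivary gland of the embryo they are also known to limit tube length. Their core is a stable complex of adhesion proteins, claudin-like membrane proteins and the sodium pump. The Scribble module (Scrib, Dlg and Lgl) sits on the same membrane, sets basolateral identity against the apical kinase aPKC, and was first known from mutants with overgrown epithelia.

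In the fkh-Gal4 list, 1 of the 9 genes had a peak in its body or within 1 kb (11.1%, exact 95% interval 0.281 to 48.2), and 11.6% of all protein-coding genes did. In the sage-Gal4 list, again 1 of 9 did (11.1%, 0.281 to 48.2), against 5.62% of all genes. Each interval is wide and includes the share of all genes, which are not matched to the members for length. Shares by class of gene length are given below. No member had a peak of both drivers (0 of 9, upper bound 33.6%), which 4.35% of all genes had. The 1 sage-Gal4 peak at a member, that at scrib, did not overlap a fkh-Gal4 peak, and 1 peak gives no share. Over the 252 kb of the members' bodies and flanks there was thus 1 peak per list, or 0.397 peaks per 100 kb (exact Poisson 95% interval 0.0100 to 2.210, counting error only). The flanked bodies of all protein-coding genes held 2.215 fkh-Gal4 peaks and 0.695 sage-Gal4 peaks per 100 kb. The members' upper bound thus lay just below the fkh-Gal4 value of all genes, and above the 2.10 found without the histone genes. With 1 list per driver there was no test of these differences.

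**Figure D1:**
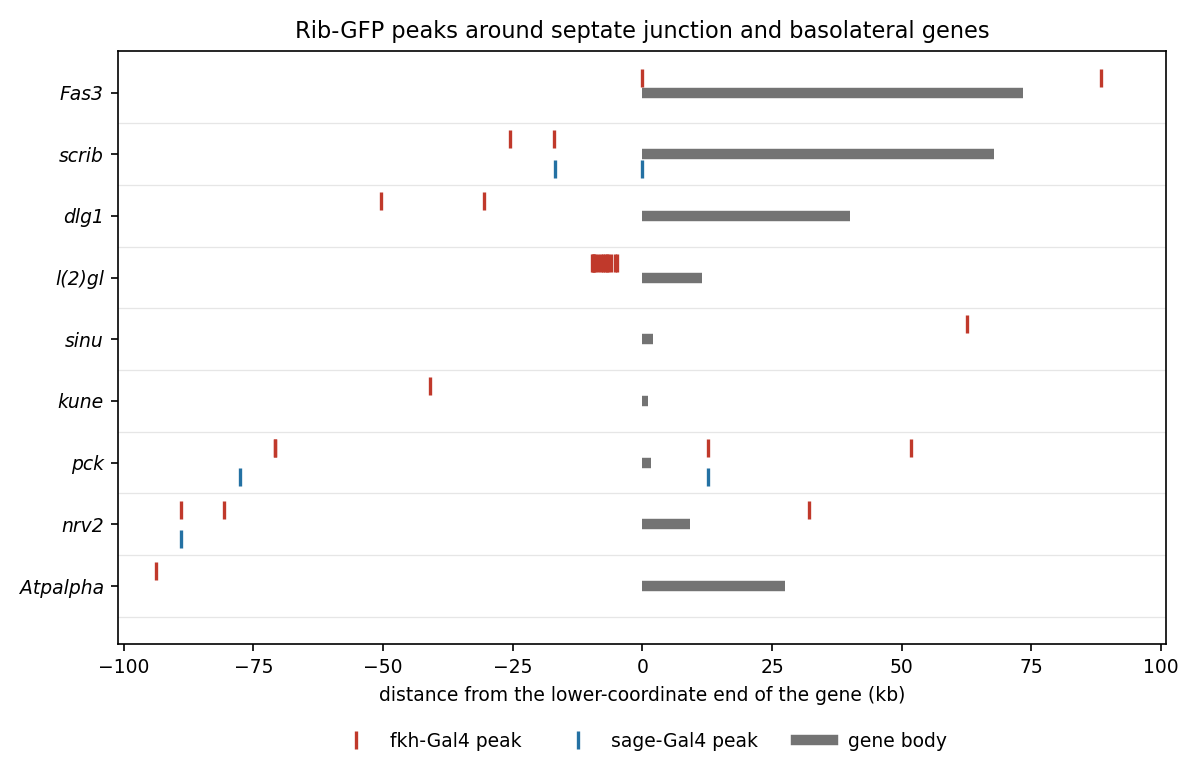
Positions of peak centres (ticks, fkh-Gal4 above the gene and sage-Gal4 below it) within 100 kb of the lower-coordinate end of each of the 9 genes, whose bodies are grey bars. A tick meets the gene at Fas3 (fkh-Gal4) and at scrib (sage-Gal4), no tick lies inside a body away from its end, and 13 fkh-Gal4 peaks crowd next to l(2)gl.

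Fas3 (gene ID 35097, 2L, 18320102 to 18393441) encodes Fasciclin 3, an immunoglobulin-family protein that binds its own kind on neighbouring cells and gathers at septate junctions. The gene is 73.3 kb long with 7 RefSeq transcripts. Its fkh-Gal4 peak was 141 bp wide (18320026 to 18320166) and lay across the lower-coordinate end of the gene, with 65 bp inside and 76 bp outside. The centre of the peak was 6 bp outside the gene, and 58.9% of fkh-Gal4 peaks were narrower. The rest of the 73.3 kb body held no peak of either driver. The nearest sage-Gal4 peak lay 168 kb from the gene, farther than for most genes, since 16.5% of all protein-coding genes had theirs farther away. A fkh-Gal4 peak with no sage-Gal4 peak in the same window was found at 7.24% of all genes, of any length. Of genes of 50 kb or more, 68.1% had a fkh-Gal4 peak, with or without a sage-Gal4 peak.

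Among the 3 genes of the Scribble module, scrib had a sage-Gal4 peak and neither dlg1 nor l(2)gl had a peak. scrib (gene ID 44448, 3R, 26536350 to 26604051) encodes a scaffold protein with leucine-rich repeats and PDZ domains. It spans 67.7 kb and has 18 RefSeq transcripts. The sage-Gal4 peak was 104 bp wide (26536273 to 26536376) and crossed the lower-coordinate end, with 27 bp inside the gene and 77 bp outside. Its centre lay 25.5 bp from that end, and 51.7% of sage-Gal4 peaks were narrower. The nearest fkh-Gal4 peak was 16.8 kb outside the gene. A sage-Gal4 peak with no fkh-Gal4 peak in the same window was found at 1.28% of all genes, of any length. Of genes of 50 kb or more, 38.0% had a sage-Gal4 peak, with or without a fkh-Gal4 peak.

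dlg1 (gene ID 32083, X, 11369665 to 11409776), with 40.1 kb and 21 RefSeq transcripts, encodes a membrane-associated guanylate kinase homologue, a PDZ scaffold. Its nearest peaks were 30.4 kb away in the fkh-Gal4 list and 334 kb away in the sage-Gal4 list. The second was the largest distance among the 9 members, and 3.29% of all genes were farther from a sage-Gal4 peak. l(2)gl (gene ID 33156, 2L, 9839 to 21376) encodes Lethal (2) giant larvae, a WD40-repeat protein that is a substrate of aPKC. It is 11.5 kb long with 11 RefSeq transcripts and stands next to the end of the arm. The first 9.84 kb of the 2L sequence, up to the gene, held 13 fkh-Gal4 peaks of 77 to 843 bp and 0 sage-Gal4 peaks. The last of the 13 (4990 to 5081, 92 bp) ended 4.76 kb before the gene, which was the shortest distance among the members without a peak of that driver. How reads that map to several places were treated is not given in the sources used here, and its part in these 13 peaks was not tested.

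The claudin-like genes sinu, kune and pck encode multi-span membrane proteins related to the claudins of vertebrate tight junctions, and are needed for the barrier and for normal tracheal tube length. None of them had a peak. These are the shortest members, at 2.13 kb for sinu (gene ID 46187, 3L, 5559470 to 5561598), 1.06 kb for kune (gene ID 35504, 2R, 5671741 to 5672800) and 1.66 kb for pck (gene ID 31101, X, 1470666 to 1472325). Their nearest fkh-Gal4 peaks lay 60.5 kb from sinu, 40.9 kb from kune and 10.9 kb from pck. The nearest sage-Gal4 peaks lay 191 kb from sinu, 128 kb from kune and 10.9 kb from pck. pck thus had the shortest distance of the 3 in both lists, and its nearest peaks of the 2 drivers overlapped each other. Of all protein-coding genes, 69.1% were farther than pck from a fkh-Gal4 peak and 84.2% from a sage-Gal4 peak.

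The sodium pump, whose subunits are also structural parts of the septate junction, had no peak at either member. Atpalpha (gene ID 48971, 3R, 20948714 to 20976239), 27.5 kb long with 11 RefSeq transcripts, encodes the catalytic alpha subunit. Its nearest peaks were 93.5 kb away in the fkh-Gal4 list and 89.0 kb away in the sage-Gal4 list, and 8.96% of all genes were farther from a fkh-Gal4 peak. nrv2 (gene ID 33953, 2L, 6789770 to 6798862), 9.09 kb long with 6 RefSeq transcripts, encodes a beta subunit. Its nearest peaks were 23.0 kb away for fkh-Gal4 and 88.7 kb away for sage-Gal4. The neighbouring gene nrv1, another beta subunit and one of the further septate junction genes below, had no peak either.

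**Figure D2:**
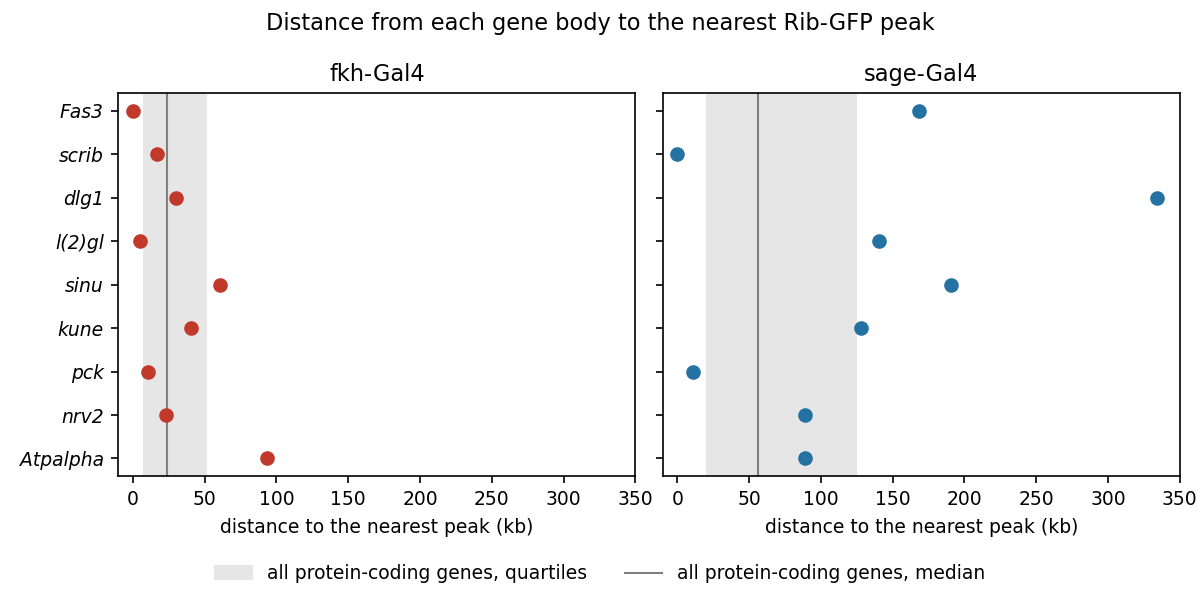
Distance in kb from each of the 9 gene bodies to the nearest peak of the fkh-Gal4 list (left) and of the sage-Gal4 list (right), with the median (line) and quartiles (grey band) over 13946 protein-coding genes. The members spread around the fkh-Gal4 median of 23.5 kb, while 7 of 9 lie above the sage-Gal4 median of 56.0 kb.

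Over the 9 members the median distance to the nearest fkh-Gal4 peak was 23.0 kb (range 0 to 93.5), and over all protein-coding genes it was 23.5 kb (quartiles 7.54 and 50.9). For sage-Gal4 the members' median was 128 kb (range 0 to 334), and that of all genes was 56.0 kb (quartiles 20.9 and 125). A sage-Gal4 peak lay within 50 kb of 2 of the 9 members, scrib and pck, against 46.5% of all genes. A fkh-Gal4 peak lay within 50 kb of 7 of 9, against 74.6% of all genes. The members' median was thus close to that of all genes in the fkh-Gal4 list and longer in the sage-Gal4 list, without a test. The further genes described below did not share the longer sage-Gal4 distance. Their median was 40.0 kb over 27 other septate junction genes, 55.6% of them within 50 kb, and 47.4 kb over 5 other basolateral genes, 4 of them within 50 kb.

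Longer genes met a peak more often in both lists, and the members range from 1.06 to 73.3 kb. Of genes of 50 kb or more, 68.1% had a fkh-Gal4 peak and 38.0% a sage-Gal4 peak, and of the 2 members in that class, Fas3 had the first and scrib the second. In the class of 20 to 50 kb the shares were 39.2% for fkh-Gal4 and 18.1% for sage-Gal4, and neither dlg1 nor Atpalpha had a peak. In the class of 5 to 20 kb they were 17.9% for fkh-Gal4 and 8.58% for sage-Gal4, with no peak at l(2)gl or nrv2. Below 5 kb they were 6.53% for fkh-Gal4 and 3.11% for sage-Gal4, and the 3 claudin-like genes had none. Both members with a peak were thus the 2 longest. Each of the 2 peaks lay at a gene end, and the part of gene length in their presence was not tested.

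**Figure D3:**
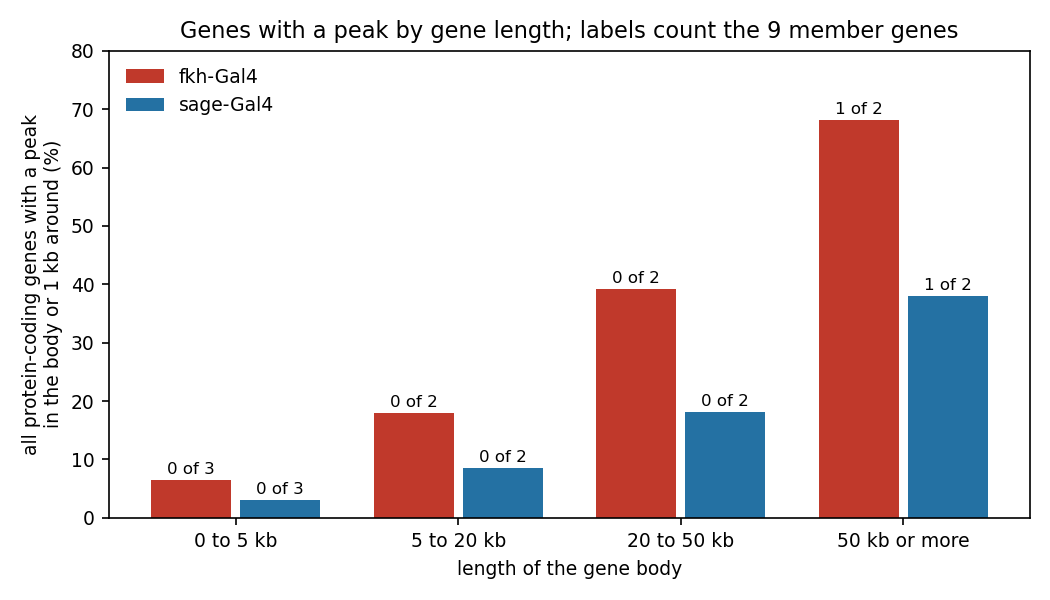
Share of all protein-coding genes with a peak in the body or within 1 kb (bars, %), by class of gene length, for fkh-Gal4 (left bar) and sage-Gal4 (right bar). The number over each bar counts the members of that class with a peak, and the shares for fkh-Gal4 climb to 68.1% in the longest class.

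The position at the end of the gene was shared by the peaks of Fas3 and scrib. The members were chosen with earlier results of these data known, so this position may not be independent of the choice. A fkh-Gal4 peak covered the first or last base of 3.41% of all protein-coding genes, and a sage-Gal4 peak did so at 1.43%. Counted over peaks, 424 of the 2210 fkh-Gal4 peaks in the window of any gene (19.2%) and 194 of the 693 such sage-Gal4 peaks (28.0%) covered an end. The gene table gives no strand, so whether the end is a transcription start or a 3′ end was not determined.

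A further 27 genes known for roles in septate junctions were counted in the same way. Of these, 6 had a fkh-Gal4 peak (22.2%, exact 95% interval 8.62 to 42.3) and 2 had a sage-Gal4 peak (7.41%, 0.910 to 24.3), set against 11.6% of all genes for fkh-Gal4 and 5.62% for sage-Gal4. The 6 were Nrg, Lac, Gli, bark, moody and wun, and the 2 with a peak of both drivers were Lac and Gli (7.41%, against 4.35% of all genes). None had a sage-Gal4 peak alone, which 1.28% of all genes had. The other 21 had no peak, among them cora, Nrx-IV, Cont, Mcr and vari, and mesh, Ssk and Tsp2A of the smooth septate junction. By length, 0 of the 13 under 5 kb had a peak of either driver, where 6.53% of all genes of that length had a fkh-Gal4 peak and 3.11% a sage-Gal4 peak. Of the 13 of 5 to 20 kb, 5 had a fkh-Gal4 peak and 2 a sage-Gal4 peak, where 17.9% of all genes of that length had the first and 8.58% the second. The 1 gene of 20 to 50 kb, Nrg, had a fkh-Gal4 peak and no sage-Gal4 peak. Of all genes of that length, 39.2% had the first and 18.1% the second.

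Among the genes with peaks, Nrg and Lac encode immunoglobulin-type adhesion molecules, and no count was made over all genes of that type. Nrg, which encodes the L1-type adhesion molecule Neuroglian, had an 85 bp fkh-Gal4 peak across its lower-coordinate end (X, 8517351 to 8517435), which also lay in the window of CG33181. Lac, which encodes Lachesin, a membrane-anchored protein needed for tracheal tube size, had 2 fkh-Gal4 peaks and 1 sage-Gal4 peak. The first fkh-Gal4 peak (2R, 12453180 to 12453266, 87 bp) crossed the lower-coordinate end and also counted for Dyb. The second (12458244 to 12458365, 122 bp) lay inside the gene, 5.11 kb from that end, and shared 63 bp with the sage-Gal4 peak (12458303 to 12458383, 81 bp), or 51.6% of the fkh-Gal4 width and 77.8% of the sage-Gal4 width.

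The tricellular junction, at the corners of cells, was represented by Gli and bark. Gli encodes Gliotactin, a neuroligin-like protein, and had a fkh-Gal4 peak (2L, 15762539 to 15762658, 120 bp) inside the gene near its higher-coordinate end. Its sage-Gal4 peak (15762650 to 15762859, 210 bp) crossed that end, with a centre 3.5 bp from it, and 93.8% of sage-Gal4 peaks were narrower. The peaks of the 2 drivers shared 9 bp, which is 4.29% of the sage-Gal4 width. bark, which encodes the transmembrane protein Anakonda, had a fkh-Gal4 peak inside the gene (2L, 3789927 to 3790013, 87 bp), and M6, a further tricellular gene, had none.

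The remaining peaks did not cross an end of the gene they counted for. That at moody, a receptor of the glial blood-brain barrier, was 116 bp wide (X, 2050376 to 2050491), lay outside the gene and inside CG4313 (2041868 to 2055414), within which moody is nested. That at wun, which encodes a lipid phosphate phosphatase, was 151 bp wide (2R, 9406860 to 9407010) and stood in the middle of the gene, 6.40 kb from its nearer end. Of 5 further basolateral genes, beta-Spec, a spectrin of the lateral membrane skeleton, had a 92 bp fkh-Gal4 peak (X, 17658499 to 17658590) 1.17 kb inside the gene. par-1, alpha-Spec, Ank and Ank2 had no peak. The basolateral count was thus 1 of 5 for fkh-Gal4 (20.0%, exact 95% interval 0.505 to 71.6), against 11.6% of all genes, and 0 of 5 for sage-Gal4 (upper bound 52.2%), against 5.62%. These shares of all genes are not matched for length. Of the 3 genes of 5 to 20 kb, 1 had a fkh-Gal4 peak, where 17.9% of all genes of that length did. For fkh-Gal4 the share was 39.2% in the class of par-1 (20 to 50 kb) and 68.1% in that of Ank2 (50 kb or more). For sage-Gal4 the shares in the 3 classes were 8.58%, 18.1% and 38.0%.

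**Figure D4:**
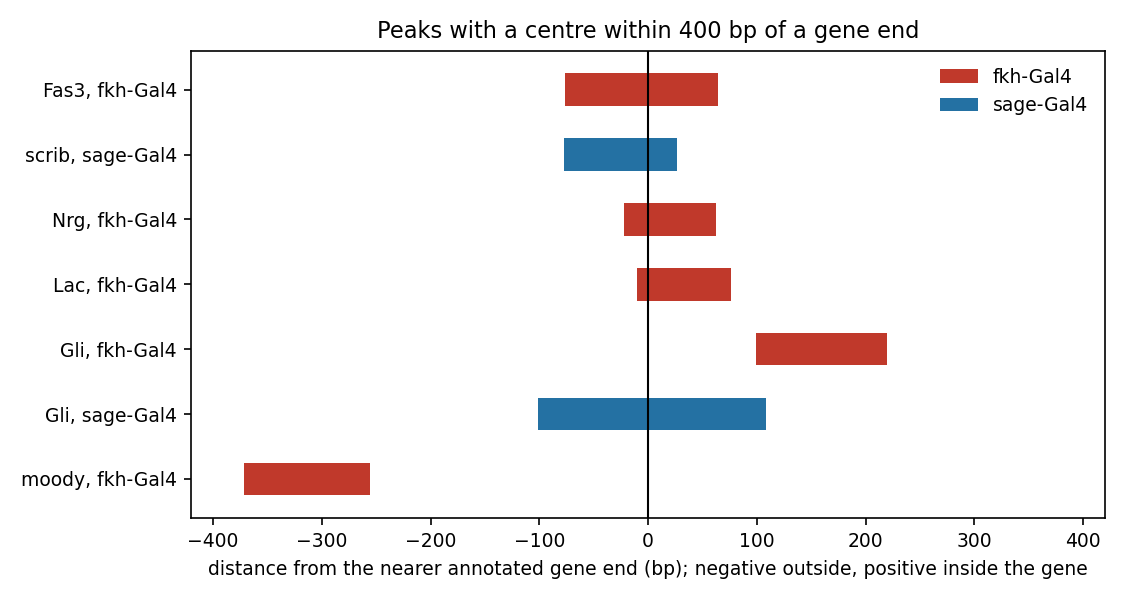
Extent of each peak with a centre within 400 bp of an annotated end of a listed gene, in bp from that end (0), negative outside and positive inside the gene, with fkh-Gal4 in red and sage-Gal4 in blue. The peaks of Fas3, scrib, Nrg and Lac and the sage-Gal4 peak of Gli cross the end, and the fkh-Gal4 peaks of Gli and moody stand beside it.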

How the data were processed

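Rib-GFP ChIP-seq of 2 drivers was analysed from 1 deposited peak list each. The authors deposited 3 columns (chromosome, start and end) with no value per peak. Per the submitters' processing notes, BWA, MACS2 2.1.0.20140616 and dm6 were used. Not given in the sources used here were the BWA version, peak threshold, filters, treatment of repeats and use of the inputs. Collections were merged before deposit, per the labels.

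Starts were made 1-based. A peak was placed at a gene where at least 1 bp overlapped the body extended by 1 kb, so it can count for several genes. Gene extents came from the RefSeq table (Release 6), which matched all 41 listed symbols and gives neither strand nor exons. Intervals are exact (Clopper-Pearson for shares, Poisson for densities) at 95% and treat genes or peaks as independent, which neighbours are not. With 1 list per driver no test was made. Python 3.11.15, pandas 2.3.3, numpy 2.4.6 and scipy 1.17.1 were used, and the overlap code was tested on simulated data. Planned motif searches and protein comparisons were not run, as no sequence was used here. The members and lists were chosen with earlier results of these data known, and the length classes after the peaks were seen. Named are all members, all further listed genes with a peak, genes sharing such a peak, and genes at some peaks nearest to members. Some further listed genes without a peak are also named, although the plan was to give these by count.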

Additional observations from a re-analysis of the deposited data

How the results depend on the processing

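The counts for the 9 members, 1 per driver, stayed at 1 with the gene body alone, windows of 500 bp and 2 kb, gene ends only, wider peaks (at or above the median width), peak centres, merging of peaks within 500 bp and assignment to the nearest gene. With the fkh-Gal4 list reduced to its 907 widest peaks (206 bp or more), the members' genes and peaks fell to 0, as did the other septate junction genes and the other basolateral genes. Width is not a measure of strength, so this alternative changes the list by construction. With wider peaks, the other septate junction genes numbered 2 for fkh-Gal4 and 1 for sage-Gal4, and the basolateral genes 0 for fkh-Gal4. At gene ends only, 1 other septate junction gene had a sage-Gal4 peak and 0 basolateral genes a fkh-Gal4 peak. The other 66 of 75 values stayed within 1.5 times the reported ones, including 0 shared peaks at members under every definition tried. That 0 rests on the 1 sage-Gal4 peak at scrib, which lay 16.7 kb from the nearest fkh-Gal4 peak, so no overlap definition used could count it as shared. Both member peaks cover a gene end. The gene body alone, the 500 bp window and gene ends only therefore could not change the members' counts. The alternative added after the data were seen, leaving out 111 histone genes, gave background densities of 2.10 fkh-Gal4 and 0.680 sage-Gal4 peaks per 100 kb. No paired analysis was possible because each driver has 1 merged list. Leaving out a collection was not possible for the same reason. The unknown depth limits every count of 0.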

Other observations

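The genes at the peaks nearest to members were looked up after their values were seen. The fkh-Gal4 peak nearest to scrib was 520 bp wide (3R, 26519005 to 26519524), lay in the window of plum and overlapped a sage-Gal4 peak. The overlapping peaks nearest to pck were 205 bp wide in the fkh-Gal4 list (X, 1483190 to 1483394) and 94 bp wide in the sage-Gal4 list (1483238 to 1483331). They lay in the windows of inc, Nmdar2 and sta, which encodes a protein of the small ribosomal subunit.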
